A study of Mus musculus with 35 samples.

Results

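The members described here are 10 serotonin receptor genes, Htr1a, Htr1b, Htr1d, Htr1f, Htr2a, Htr2c, Htr3a, Htr4, Htr5b and Htr7, in the amygdala of the mouse. They were taken as a list of gene symbols from the 52636 gene identifiers of the count files, and each symbol matched 1 identifier. The list was drawn up with earlier results of these data known, and it leaves out Htr2b, Htr3b, Htr5a and Htr6. RNA-seq counts were compared between the anterior and posterior portion of the amygdala, between 2 mouse strains, between 2 housing conditions and between mice with opposite judgment biases.

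The 35 libraries came from cells captured by laser from brain sections of 19 female mice that had been trained from postnatal day 70, for 37 to 90 days, and then tested over 5 days for how they judged ambiguous cues. C57BL/6J is an inbred strain, and B6D2F1N is a hybrid strain. In standard housing there were 4 C57BL/6J mice and 5 B6D2F1N mice, and both portions of each were sequenced. After enriched housing, in which mice were let into a playground for 1 h per day from postnatal day 77, C57BL/6J mice gave 2 anterior and 4 posterior libraries and B6D2F1N mice gave 5 anterior and 6 posterior libraries. The labels name no transgene and no drug. The labels class 4 mice as optimists (3 B6D2F1N and 1 C57BL/6J, all in standard housing) and 5 as pessimists (1 B6D2F1N in standard housing, and 2 B6D2F1N and 2 C57BL/6J in enriched housing). Mice are numbered within strain and housing.

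Serotonin reaches the amygdala in axons whose cell bodies lie in the raphe nuclei of the brainstem, and it acts there on many receptors at once. The Htr1 receptors couple to inhibitory G proteins and lower cyclic AMP, and Htr5b is usually placed with them. Htr2a and Htr2c couple to Gq and phospholipase C, Htr4 and Htr7 couple to Gs and raise cyclic AMP, and Htr3a encodes a subunit of the only serotonin receptor that is an ion channel. In the forebrain Htr3a marks a class of inhibitory interneurons, and Htr2c is studied in the amygdala for its part in anxiety.

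The libraries held 16938534 to 27352623 counts in genes. Rspo2, a gene of the anterior basolateral amygdala, was at 33.4 to 305 CPM (counts scaled by TMM to a common library size) in the anterior libraries and at 0.0417 to 54.3 CPM in the posterior ones, so that the portions overlapped. All 8 listed genes of the choroid plexus, the tissue that makes cerebrospinal fluid, were higher in the posterior portion over both strains. The excitatory neuron list summed to 1825 to 4422 CPM in the anterior libraries and to 1108 to 5561 CPM in the posterior ones. Of the B6D2F1N mice, standard mouse 3 and enriched mouse 1 were under 50 CPM of Rspo2 in the anterior library, and enriched mice 1 and 3 were over 10000 CPM of the choroid plexus gene Ttr in the posterior library. The anterior library of enriched mouse 1 was also over a limit of 100 CPM of Ttr. Portion results that change without these 3 mice are also given without them. B6D2F1N standard mouse 1 had no count of Xist, the transcript of the inactive X chromosome of females, in either library. Its counts of Y-linked genes were also at or near 0, and 99 of 101 genes that differed between the strains in enriched posterior libraries were nearer to B6D2F1N in its posterior library. Fewer cells of a type and less RNA per cell cannot be told apart in these laser-captured samples. The methods give the sections nearer the front of the brain for the posterior portion, and the portions are called here as the labels call them.

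Set against each other by CPM per kilobase of exon, the receptors spread over a wide range, and by their means Htr2c, Htr1f and Htr3a led in both portions. In the 16 anterior libraries, Htr2c was at 29.4 ± 11.1 (SD), Htr1f at 17.1 ± 4.97 and Htr3a at 10.8 ± 4.66 CPM per kilobase. Each of these was above the next by more than the SD of the difference within libraries, on the log2(CPM per kilobase + 0.1) scale. Htr1b followed at 3.27 ± 1.43 and Htr2a at 3.15 ± 1.31 CPM per kilobase, with Htr1b higher in 8 of the 16 libraries, and these neighbours did not differ beyond their spread. The rest of the anterior order was Htr7, Htr1a, Htr4, Htr1d and Htr5b, and none of these neighbours was apart from the next.

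In the 19 posterior libraries Htr3a, at 21.0 ± 13.5 CPM per kilobase, stood level with Htr2c at 18.3 ± 7.07 and was the higher of the pair in 10 libraries. Htr1f, at 10.3 ± 6.23, was below Htr2c in 16 libraries but not by more than the spread of the difference. Htr1f was above Htr1b, at 3.33 ± 1.38, in all 19 libraries, and this was the only gap in the posterior order that exceeded its spread. Htr2a, in place 5 of the anterior order, was in place 9 of the posterior order at 1.07 ± 0.523 CPM per kilobase. Htr2c made up 17.3 to 55.1% (median 41.8%) of the summed CPM per kilobase of the 10 receptors in anterior libraries and 14.8 to 43.8% (median 27.3%) in posterior ones.

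**Figure D1:**
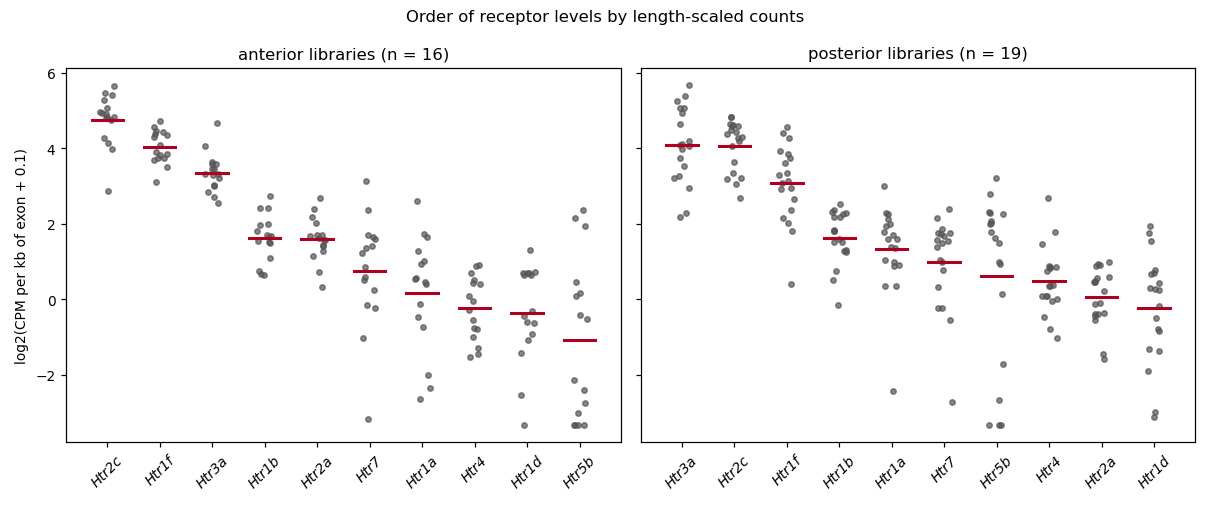
Level of each receptor in log2(CPM per kilobase of exon + 0.1) in the 16 anterior libraries (left) and the 19 posterior libraries (right), in falling order of the mean. Points are libraries and bars are means. The means of Htr2c, Htr1f and Htr3a lie above those of the other 7 receptors in both portions, though single libraries cross. Htr2a moves from place 5 to place 9, and in both orders it was not apart from its neighbours.

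The receptors differed in how steady they were between libraries. Htr2c, the most counted member, ran from 59.5 to 467 CPM, while Htr1a ran from 0.276 to 35.2 CPM and Htr7 from 0.0389 to 29.7 CPM. Htr5b had no count in 7 of the 35 libraries and at most 3 counts in 11. A count of 0 allows a level of up to 0.109 to 0.172 CPM at these depths, counting error only. Htr1d had no count in 1 library and at most 3 counts in 3, and Htr7 had at most 3 counts in 1. The libraries were made with a kit for low amounts of RNA, and whether this bears on the spread of the rarer receptors was not tested.

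Between the portions, Htr2a, Htr1f and Htr2c were lower in the posterior amygdala and Htr3a and Htr1a were higher, in the fit over all 16 mice with both portions. edgeR's quasi-likelihood test with the mouse as a block and Benjamini-Hochberg adjustment called 5 of the 10 receptors at an adjusted p of at most 0.05, against 8.6% of the 29437 genes tested. Of these, 2 were higher and 3 were lower in the posterior portion, against 3.91% and 4.69% of all genes. Htr2b, Htr3b, Htr5a and Htr6, which the list leaves out, were not called in this fit. The median log2 fold change of the 10 receptors was 0.127, and that of all genes was 0.118. Taken strain by strain, 2 receptors were called in the 6 C57BL/6J mice (1 higher and 1 lower) and 1, a lower one, in the 10 B6D2F1N mice. The background of those fits was 3.64% of genes in C57BL/6J (1.54% higher and 2.1% lower) and 4.0% in B6D2F1N (1.62% higher and 2.37% lower). The fit over both strains shares every library with the fits per strain and is no independent test of them. With DESeq2's likelihood ratio test the counts were 5 of 10 in C57BL/6J, 3 in B6D2F1N and 5 over both strains, against 5.96%, 7.18% and 11.7% of the genes fitted.

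**Figure D2:**
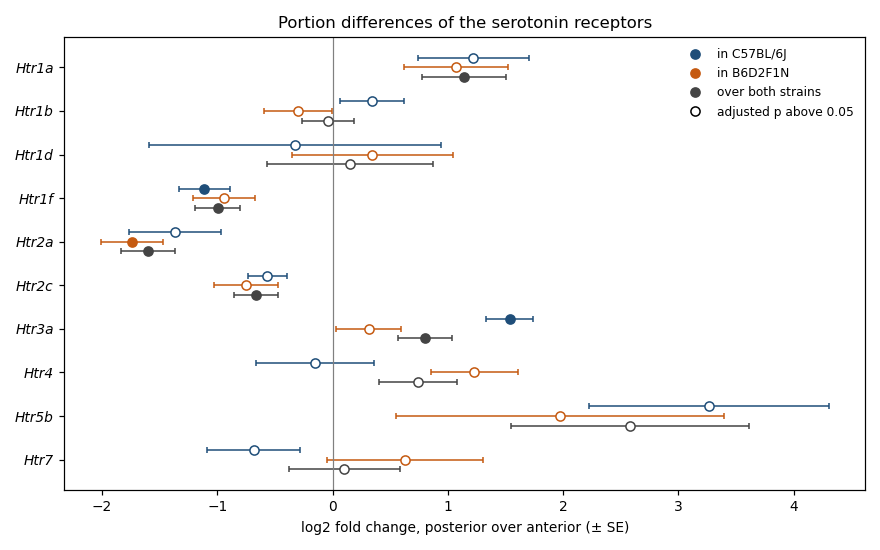
Log2 fold change of each receptor, posterior over anterior, with its standard error, in the 6 C57BL/6J mice, the 10 B6D2F1N mice and the 16 mice of both strains. Filled points have an adjusted p of at most 0.05. Htr2a, Htr1f and Htr2c lie below 0 in all 3 fits, and Htr1a, Htr3a and Htr5b lie above 0.

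The sequences just upstream of 4 of the 5 called receptors, taken from RefSeq (build GRCm38.p6), are shown to set side by side the genes that moved the same way. Of the 10 receptors, 7 matched an entry of the promoter table, and Htr3a, Htr4 and Htr5b did not. Each stretch ends just before the first annotated base of the gene, runs 5′ to 3′ on the gene's strand and is in lower case, with capitals for motif matches on either strand. The motifs searched were the TATA box with the letters TATAAA, the CCAAT box, and the GC box, which is spelled GGGCGG. The cyclic AMP response element (TGACGTCA) and, as an E-box, the letters CAGCTG were searched too. The regions are chr14:74640624-74640839 (+) for Htr2a, chr16:65105855-65106034 (-) for Htr1f, chrX:146962263-146962512 (+) for Htr2c and chr13:105443443-105443638 (+) for Htr1a.
Htr2a: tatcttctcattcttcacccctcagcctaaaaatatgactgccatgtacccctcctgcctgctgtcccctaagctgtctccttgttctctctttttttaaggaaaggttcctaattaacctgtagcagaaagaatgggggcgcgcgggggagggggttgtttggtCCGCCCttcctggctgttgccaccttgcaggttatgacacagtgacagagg
Htr1f: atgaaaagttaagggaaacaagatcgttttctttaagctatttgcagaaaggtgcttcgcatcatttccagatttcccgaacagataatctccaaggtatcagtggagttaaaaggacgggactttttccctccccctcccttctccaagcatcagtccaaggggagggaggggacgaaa
Htr2c: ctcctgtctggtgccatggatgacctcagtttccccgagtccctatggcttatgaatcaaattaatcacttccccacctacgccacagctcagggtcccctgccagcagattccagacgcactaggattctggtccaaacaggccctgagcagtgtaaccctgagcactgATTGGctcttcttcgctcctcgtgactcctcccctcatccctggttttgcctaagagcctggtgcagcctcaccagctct
Htr1a: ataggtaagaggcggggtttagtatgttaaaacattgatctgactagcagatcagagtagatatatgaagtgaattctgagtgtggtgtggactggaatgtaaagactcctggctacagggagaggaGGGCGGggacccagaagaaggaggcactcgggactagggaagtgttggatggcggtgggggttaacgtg
A GGGCGG match lay in the stretches of Htr2a and Htr1a, as in 27.9% and 23.9% of the 32851 RefSeq promoter windows of the same length and position. Htr2c held 1 CCAAT match, read on the other strand, as did 33.8% of windows of its length. Htr1f held none of the 5 motifs, so the 3 receptors that were lower in the posterior portion shared none of them. A match is a run of letters and not a measured binding site.

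Of the receptors that couple to inhibitory G proteins, Htr1f fell and Htr1a rose toward the posterior. Htr1f (ENSMUSG00000050783, chromosome 16, 64924729 to 65105854), a receptor of the class targeted by some migraine drugs, was at 22.0 to 67.3 CPM (median 40.8) in anterior and 3.16 to 60.9 CPM (median 22.4) in posterior libraries. It was lower in the posterior library of 15 of 16 mice, the exception being B6D2F1N standard mouse 5 with 36.2 and 38.8 CPM, although the ranges overlapped. Over both strains its log2 fold change was -0.997 ± 0.195 (SE), with an edgeR adjusted p of 0.00100. In C57BL/6J it was -1.11 ± 0.22 with an edgeR adjusted p of 0.00521, lower in 6 of 6 mice. In B6D2F1N it was -0.94 ± 0.27 with an edgeR adjusted p of 0.0555, lower in 9 of 10 mice, and without standard mouse 5 the adjusted p was 0.0350. Without the 3 mice with libraries apart in markers the B6D2F1N value was -0.64 ± 0.25, with an edgeR adjusted p of 0.240.

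Htr1a (ENSMUSG00000021721, chromosome 13, 105443639 to 105448122), which also serves as the autoreceptor of serotonin neurons, was at 0.276 to 27.0 CPM (median 5.86) in anterior and 0.385 to 35.2 CPM (median 13.2) in posterior libraries. It was higher in the posterior library of 12 of 16 mice, and the portions overlapped over most of their range. The anterior extremes were 0.276 CPM in C57BL/6J standard mouse 3 and 27.0 CPM in B6D2F1N enriched mouse 1. Over both strains its log2 fold change was 1.14 ± 0.36, with an edgeR adjusted p of 0.0479. This call was close to the threshold. It was lost when any of 11 of the 16 mice was left out, with adjusted p from 0.0554 to 0.0982, the exceptions being C57BL/6J standard mouse 2 and enriched mouse 3 and B6D2F1N standard mouse 3 and enriched mice 1 and 2. Without the 3 mice with libraries apart in markers, the log2 fold change was 1.39 and the edgeR adjusted p 0.0234. In the separate strains it did not pass, with log2 fold changes of 1.22 ± 0.48 in C57BL/6J and 1.07 ± 0.45 in B6D2F1N.

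Htr1b and Htr1d, both known as autoreceptors of serotonin terminals, showed no common direction. Htr1b (ENSMUSG00000049511, chromosome 9, 81628291 to 81633828) was at 15.4 ± 6.78 CPM (SD, n = 16) in anterior and 15.8 ± 6.54 CPM (n = 19) in posterior libraries and was higher in the posterior portion in 8 of 16 mice. Its exons overlap those of D430036J16Rik on the opposite strand, and the library kit does not mark strand. Reads in the shared stretch cannot be assigned to either gene, and reads in several genes were left out of the counts. Its CPM per kilobase was scaled by all its exons, and whether its level is understated was not tested. Htr1d (ENSMUSG00000070687, chromosome 4, 136423524 to 136444398) was at 0 to 7.57 CPM in anterior and 0.0479 to 12.0 CPM in posterior libraries. Its log2 fold change over both strains was 0.15 ± 0.72, a standard error too wide to show a difference of the size seen for Htr1f.

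Htr5b (ENSMUSG00000050534, chromosome 1, 121509842 to 121528465) had the largest fitted difference of the 10 and did not pass the test. In C57BL/6J, the anterior libraries held 0 to 1.98 CPM (median 0.748) and the posterior libraries 0.394 to 17.8 CPM (median 7.59), and 5 of 6 mice were higher in the posterior portion. The exception was standard mouse 3, which went from 1.89 to 0.394 CPM. In B6D2F1N the range was 0 to 9.77 CPM in anterior and 0 to 9.49 CPM in posterior libraries, with 3 libraries without a count on each side. The log2 fold change was 3.27 ± 1.04 in C57BL/6J, with an edgeR adjusted p of 0.107, and 2.58 ± 1.03 over both strains, with an edgeR adjusted p of 0.142. Left out of the C57BL/6J fit, standard mouse 3 brought the adjusted p to 0.00755. Left out of the fit over both strains, B6D2F1N enriched mouse 2, at 8.39 CPM in its anterior library and with no posterior count, brought it to 0.0389. DESeq2 called Htr5b in C57BL/6J with an adjusted p of 0.0177.

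The Gq-coupled receptors of the list, Htr2a and Htr2c, were both lower in the posterior portion over both strains. Htr2a (ENSMUSG00000034997, chromosome 14, 74640840 to 74709494), the main cortical target of psychedelic drugs, was at 6.44 to 35.3 CPM (median 16.5) in anterior and 1.30 to 10.6 CPM (median 5.95) in posterior libraries. In the 10 B6D2F1N mice the portions did not overlap: the anterior libraries held 14.5 to 35.3 CPM and the posterior ones 3.26 to 10.2 CPM. In C57BL/6J, 5 of 6 mice were lower in the posterior portion and standard mouse 4 was higher, going from 8.68 to 10.6 CPM. The log2 fold change was -1.60 ± 0.24 over both strains (edgeR adjusted p = 3.96e-05) and -1.74 ± 0.27 in B6D2F1N (edgeR adjusted p = 8.39e-04). In C57BL/6J it was -1.37 ± 0.40 with an edgeR adjusted p of 0.0713, which became 0.0346 without standard mouse 4.

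Htr2c (ENSMUSG00000041380, chromosome X, 146962513 to 147197277) was at 66.9 to 467 CPM (median 271) in anterior and 59.5 to 265 CPM (median 181) in posterior libraries. It was lower in the posterior portion in 14 of 16 mice. The exceptions were B6D2F1N enriched mouse 1, at 66.9 and 223 CPM, and enriched mouse 3, at 145 and 193 CPM. Both are among the 3 mice with libraries apart in markers. Their posterior libraries held 13670 and 13780 CPM of the choroid plexus gene Ttr. The anterior library of enriched mouse 1 held 895 CPM of Ttr, against a median of 7.12 CPM over the anterior libraries. Rspo2 was at 33.4 CPM there, and listed oligodendrocyte genes summed to 30780 CPM, the highest of all libraries. Whether RNA of choroid plexus or oligodendrocytes bears on the Htr2c levels was not tested. Over both strains the log2 fold change was -0.67 ± 0.19 (edgeR adjusted p = 0.0255), and without the 3 mice it was -0.89 ± 0.16 (edgeR adjusted p = 5.11e-04). In B6D2F1N it went from -0.75 ± 0.28, with an edgeR adjusted p of 0.171, to -1.15 with an adjusted p of 0.00722 without the 3 mice, and to 0.0163 without enriched mouse 1 alone. In C57BL/6J all 6 mice were lower in the posterior portion, with a log2 fold change of -0.57 ± 0.17 and an edgeR adjusted p of 0.0823, or 0.0467 without enriched mouse 3. Over both strains, leaving out B6D2F1N standard mouse 2 or enriched mouse 2 or 4 took the adjusted p to between 0.0501 and 0.0556.

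Beside these receptors, 3 of the 6 genes of the excitatory neuron list were lower and 1 higher in the posterior portion over both strains. Of all genes, 4.69% were lower and 3.91% higher. Slc17a7 and Neurod6 were lower. Slc17a6, of the same list, went the other way, with medians of 72.1 CPM in anterior and 200 CPM in posterior libraries. Whether the level of excitatory neuron genes bears on the receptors was not tested.

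The ion channel subunit Htr3a (ENSMUSG00000032269, chromosome 9, 48899213 to 48911099) was higher in the posterior portion of every C57BL/6J mouse. Standard mice 1 to 4 went from 22.5 to 69.8, 52.6 to 107, 16.9 to 70.0 and 19.2 to 86.7 CPM. Enriched mice 1 and 3 went from 20.7 to 63.4 and from 20.1 to 34.9 CPM. Of these 6 anterior libraries, that of standard mouse 2, at 52.6 CPM, was the only one to reach the posterior range of the same mice. In C57BL/6J its log2 fold change was 1.53 ± 0.20, with an edgeR adjusted p of 1.43e-04, and it was called under every alternative and with each mouse left out.

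In B6D2F1N, Htr3a was at 12.0 to 34.4 CPM in anterior and 9.18 to 79.5 CPM in posterior libraries and was higher in the posterior portion in 6 of 10 mice. The log2 fold change was 0.31 ± 0.28, with an edgeR adjusted p of 0.647. The interaction of portion and strain was -1.23 ± 0.40 for Htr3a, with an unadjusted p of 0.00487 and an edgeR adjusted p of 1, so a dependence on strain did not pass across all genes. Over both strains Htr3a was higher by 0.80 ± 0.23 (edgeR adjusted p = 0.0276). That call was lost, with adjusted p from 0.0520 to 0.0661, when any of 7 mice was left out, namely C57BL/6J standard mice 1 to 4 and enriched mouse 1 and B6D2F1N standard mouse 1 and enriched mouse 2.

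Of the 10 genes listed as markers of interneurons of the Htr3a type, 5 were lower and 1 was higher in the posterior portion over both strains. Of all genes, 4.69% were lower and 3.91% higher. The list summed to 607 to 2945 CPM in the anterior and 442 to 1499 CPM in the posterior libraries. The largest part of these sums was Cnr1, with medians of 1044 and 420 CPM beside 1447 and 790 CPM for the whole list. Calb2, a calcium-binding protein gene, was the higher one, and Cnr1, Lamp5, Ndnf, Reln and Vip were lower. All 8 choroid plexus genes, all 5 ependymal genes and Dcn of the 6 meningeal genes were also higher in the posterior portion, and their part in the Htr3a result was not tested. The other meningeal genes were mixed by their means over all anterior and all posterior libraries. These were 4.59 and 12.1 CPM for Lum, 1.52 and 2.95 CPM for Col1a1, and 7.958 and 8.205 CPM for Col1a2. They were lower in the posterior portion for Col3a1 (1.57 and 1.14 CPM) and Slc6a13 (8.85 and 7.01 CPM).

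The Gs-coupled receptors of the list, Htr4 and Htr7, did not pass in any portion fit by edgeR. Htr4 (ENSMUSG00000026322, chromosome 18, 62324204 to 62496577) was at 1.20 to 8.65 CPM (median 2.97) in anterior and 2.37 to 31.2 CPM (median 7.78) in posterior B6D2F1N libraries, and was higher in the posterior portion in 8 of 10 mice. Its log2 fold change in B6D2F1N was 1.23 ± 0.37 with an edgeR adjusted p of 0.0786, which was 0.0441 without enriched mouse 2, and DESeq2's adjusted p was 0.0116. In C57BL/6J it was -0.15 ± 0.51, and 4 of 6 mice were lower. Htr7 (ENSMUSG00000024798, chromosome 19, 35958734 to 36057507) was at 8.01 ± 7.23 CPM in anterior and 8.15 ± 4.56 CPM in posterior libraries, with a log2 fold change of 0.10 ± 0.48 over both strains.

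**Figure D3:**
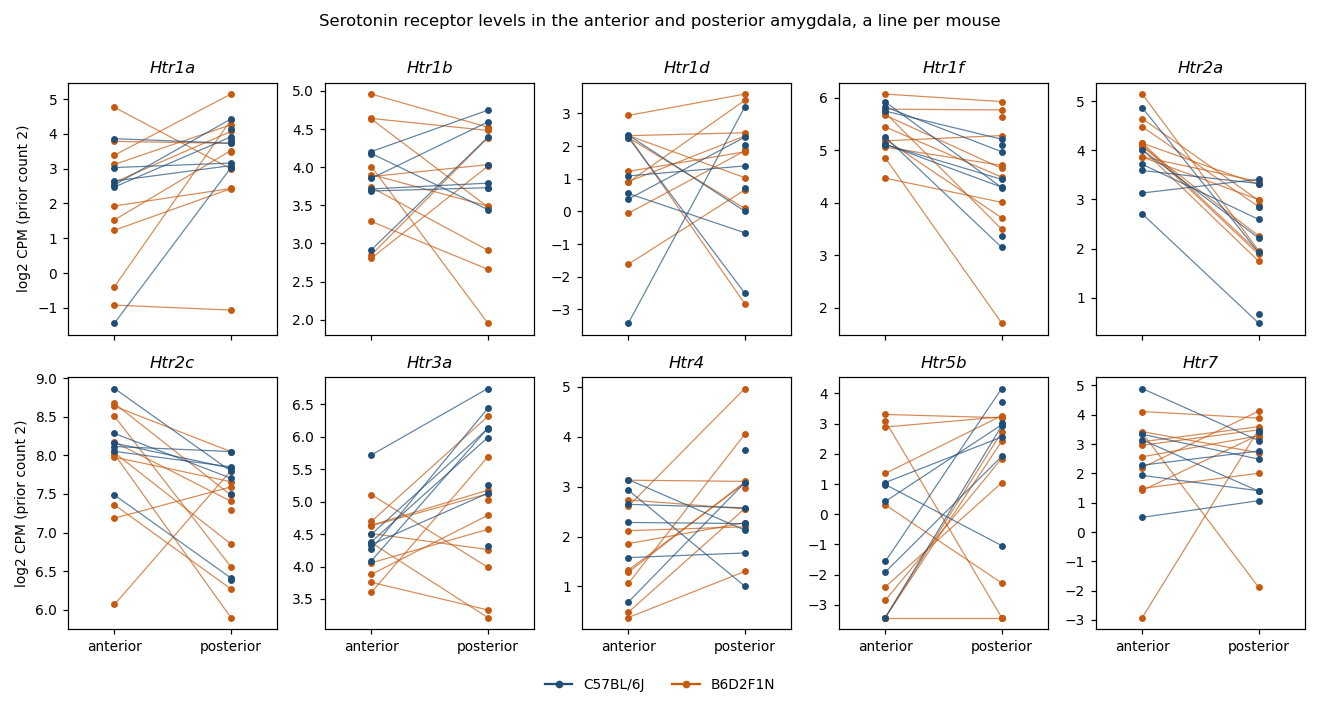
Level of each receptor in log2 CPM (prior count 2) in the anterior and posterior libraries. Each line joins the libraries of a mouse, points without a line are mice with a posterior library only, and color marks the strain. Htr2a is lower in the posterior portion in 15 of 16 mice, Htr1f in 15 and Htr2c in 14, and Htr3a is higher in all 6 C57BL/6J mice with both portions.

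Between the strains, no receptor passed the edgeR test in any of the 4 combinations of housing and portion, and Htr3a in standard posterior libraries had the smallest p. All genes were called at 0.37% in standard anterior, 0.373% in standard posterior, 0.0639% in enriched anterior and 0.394% in enriched posterior libraries. At an unadjusted p under 0.05 the receptors gave 0, 2, 0 and 0, against 9.0%, 10.3%, 4.33% and 9.11% of all genes. DESeq2's Wald test called 0 receptors in each, among 254, 392, 137 and 342 genes called in the same order. It gave no p for Htr3a in standard posterior libraries.

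In standard posterior libraries, Htr3a was at 69.8, 107, 70.0 and 86.7 CPM in the 4 C57BL/6J mice. In the 5 B6D2F1N mice it was at 79.5, 15.8, 9.96, 9.18 and 23.7 CPM. Mouse 1, the B6D2F1N mouse without Xist counts, lay inside the C57BL/6J range, and the other 4 lay below all C57BL/6J mice. The log2 fold change, B6D2F1N over C57BL/6J, was -1.58 ± 0.51, with an unadjusted p of 0.00768 and an edgeR adjusted p of 0.366. Without B6D2F1N standard mouse 1 it was -2.48 ± 0.31 with an adjusted p of 0.00159.

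Dcn, a proteoglycan gene of the meningeal fibroblast list, split these libraries in the same way, with 912 to 1759 CPM in C57BL/6J, 1661 CPM in B6D2F1N mouse 1 and 8.72 to 56.1 CPM in the other 4. That list summed to 931 to 1796 CPM in the C57BL/6J and 17.0 to 1691 CPM in the B6D2F1N libraries, and Dcn made up most of the higher sums. None of its 6 genes was called between the strains here. Over all posterior libraries its collagen genes were at 0.197 to 11.3 CPM for Col1a1, 1.67 to 17.6 CPM for Col1a2 and 0 to 3.37 CPM for Col3a1. The interneuron list ran from 877 to 1267 CPM in C57BL/6J, was at 1499 CPM in B6D2F1N mouse 1 and at 442 to 648 CPM in the other 4. The part of either in the Htr3a difference was not tested.

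Htr3a showed no such gap elsewhere, with log2 fold changes between the strains of -0.33 ± 0.34 in standard anterior, -0.03 ± 0.39 in enriched anterior and -0.22 ± 0.30 in enriched posterior libraries. The interaction of strain and housing in the posterior portion was 1.36 ± 0.64 for Htr3a, with an unadjusted p of 0.0446 and an edgeR adjusted p of 0.575. Htr4 in standard posterior libraries was at 1.91, 4.28, 8.35 and 4.69 CPM in C57BL/6J and at 8.43, 8.31, 8.51, 31.2 and 5.81 CPM in B6D2F1N. These groups overlapped, and the log2 fold change was 1.39 ± 0.54 with an edgeR adjusted p of 0.459.

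**Figure D4:**
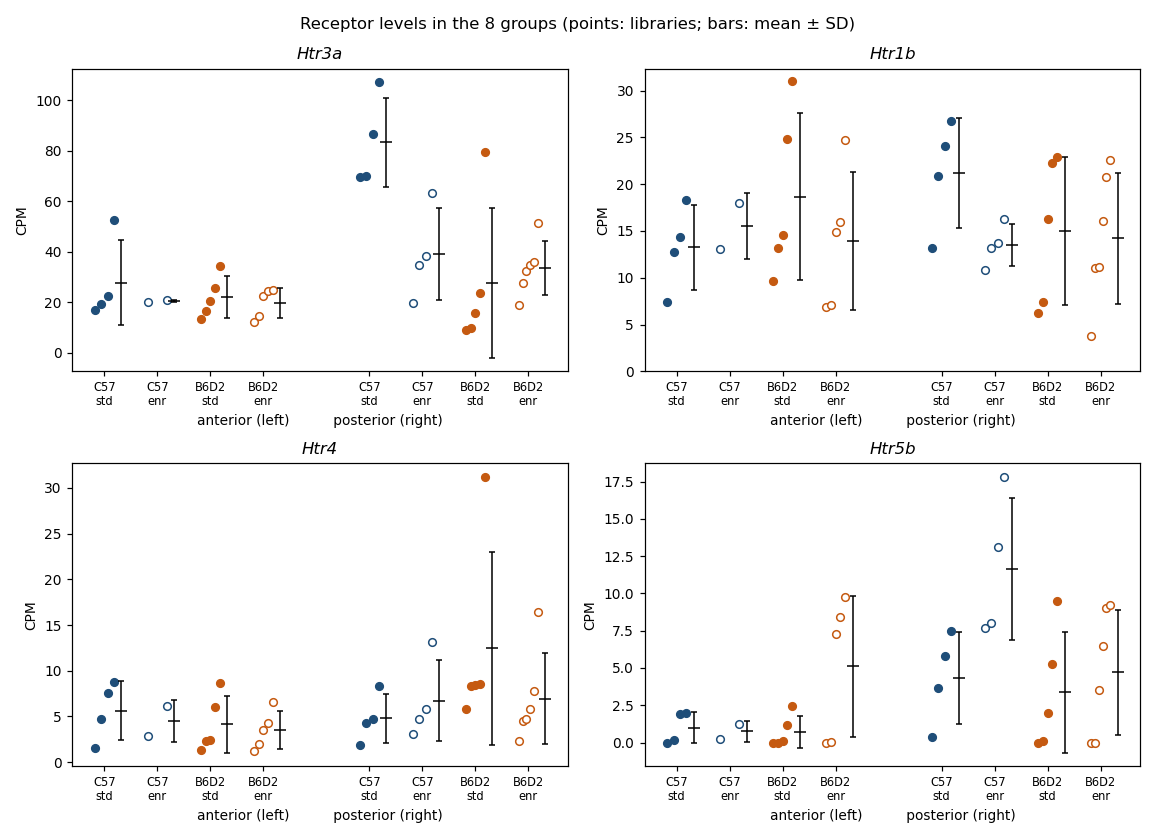
CPM of Htr3a, Htr1b, Htr4 and Htr5b in the 8 groups, anterior on the left and posterior on the right of each panel. Blue marks C57BL/6J and orange B6D2F1N, filled points are standard (std) and open points enriched (enr) housing, and black bars are mean ± SD. The 4 C57BL/6J standard posterior libraries of Htr3a, at 69.8 to 107 CPM, lie above all others but 1 B6D2F1N library at 79.5 CPM.

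Between the housing conditions, too, edgeR called no receptor, and the 3 that came nearest were Htr3a, Htr5b and Htr1b in the posterior portion of C57BL/6J mice. The authors kept mice of a strain together in cages and joined whole cages to a playground. Cage was not a term in these fits, which take each mouse as a replicate. The share of all genes called was 0.0% in C57BL/6J anterior, 0.0163% in C57BL/6J posterior, 0.0% in B6D2F1N anterior and 0.0% in B6D2F1N posterior libraries. At an unadjusted p under 0.05 the counts of receptors were 0, 3, 0 and 0, against 6.2%, 10.3%, 6.3% and 6.59% of all genes. DESeq2's Wald test called 1 receptor, Htr3a, in C57BL/6J posterior libraries, with an adjusted p of 0.0460, and 0 in the others. It called 1.3% of the genes fitted in C57BL/6J posterior libraries. In the others it called 100 genes in C57BL/6J anterior, 8 in B6D2F1N anterior and 13 in B6D2F1N posterior libraries.

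Htr3a in posterior C57BL/6J libraries was at 63.4, 19.8, 34.9 and 38.2 CPM after enriched housing, below each of the 4 standard mice given above. Its log2 fold change, enriched over standard, was -1.07 ± 0.30, with an edgeR adjusted p of 0.269. Htr5b lay the other way, at 0.394 to 7.48 CPM in standard and 7.70 to 17.8 CPM in enriched mice. These groups do not overlap, but their nearest values almost meet. Its log2 fold change was 1.45 ± 0.61 with an edgeR adjusted p of 0.477. Htr1b was at 20.9, 13.2, 26.7 and 24.0 CPM in standard and 10.8, 13.2, 13.7 and 16.2 CPM in enriched mice, groups that overlapped, with a log2 fold change of -0.64 ± 0.29 and an edgeR adjusted p of 0.480. In B6D2F1N posterior libraries Htr3a was at 9.18 to 79.5 CPM in standard and 19.1 to 51.5 CPM in enriched housing. In B6D2F1N anterior libraries Htr5b was at 9.77, 8.39, 0.0453, 0 and 7.30 CPM after enriched housing, against at most 2.46 CPM in standard housing, and the log2 fold change of 2.78 ± 1.49 did not pass (edgeR adjusted p = 0.880). In C57BL/6J posterior libraries Mbp, a myelin gene, was the only marker of any list that was called between housing conditions. The oligodendrocyte list, which holds Mbp, summed to 7847 to 12670 CPM in the standard and 17400 to 27090 CPM in the enriched mice, without overlap. Beside the Htr3a values, Dcn was at 912 to 1759 CPM in standard and 172 to 1381 CPM in enriched mice. The meningeal list that holds Dcn summed to 931 to 1796 CPM and 222 to 1410 CPM, and the interneuron list to 877 to 1267 CPM and 586 to 810 CPM. Their part in the result was not tested.

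Between optimists and pessimists, with strain and housing as terms, edgeR and DESeq2's likelihood ratio test each called 0 receptors in the anterior and in the posterior portion. Of all genes, edgeR called 0.00414% in the anterior and 0.00396% in the posterior portion, and DESeq2 called 21 and 19 genes. At an unadjusted p under 0.05 there were 0 receptors in the anterior and 1, Htr3a, in the posterior portion, against 4.13% and 3.5% of all genes. Posterior Htr3a was at 86.7, 9.96, 9.18 and 23.7 CPM in the 4 optimists and at 63.4, 19.8, 79.5, 27.5 and 51.5 CPM in the 5 pessimists. The groups overlapped: the C57BL/6J optimist was above every pessimist, and of the 3 B6D2F1N optimists 2 were below every pessimist. The fitted log2 fold change, optimists over pessimists, was -2.02 ± 0.77 with an edgeR adjusted p of 1, and without the strain and housing terms it was -0.56 ± 0.60. B6D2F1N in standard housing was the only group that held both classes, and its single pessimist was mouse 1, without which the terms could not be fitted. The widest fitted values, 3.41 ± 1.91 for Htr1a in the anterior and 4.92 ± 2.97 for Htr5b in the posterior portion, had standard errors to match and unadjusted p of 0.103 and 0.121.

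For the interaction terms edgeR called 0 receptors and 0 genes. For portion by strain the edgeR share was 0.0% of all genes, with 2 receptors (Htr3a and Htr4) at an unadjusted p under 0.05 against 2.96% of genes. For portion by housing it was 0.0%, with 0 receptors against 3.02%. For strain by housing it was 0.0% in both portions, with 0 receptors against 5.98% in the anterior and 1, Htr3a, against 8.38% in the posterior portion. DESeq2 called 0 receptors in each of these. The Htr4 term of portion by strain was 1.38 ± 0.65 with an edgeR adjusted p of 1.

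**Figure D5:**
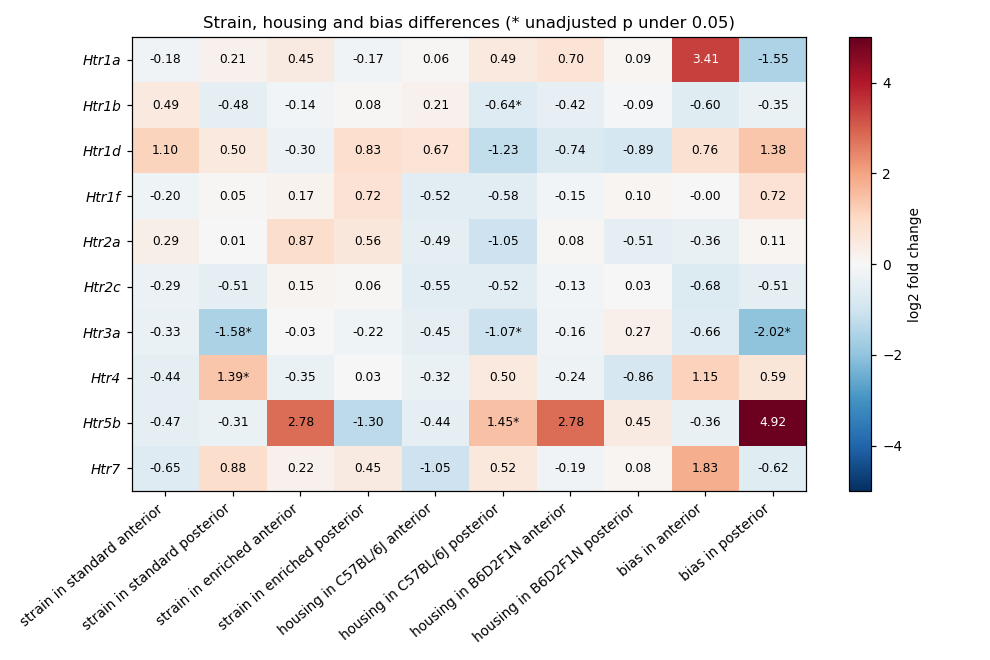
Log2 fold change of each receptor between strains (B6D2F1N over C57BL/6J), housing conditions (enriched over standard) and bias classes (optimists over pessimists). Color runs from blue (lower) to red (higher), and an asterisk marks an unadjusted p under 0.05. No cell has an adjusted p of at most 0.05, and Htr3a holds 3 of the asterisks.

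None of the 4 receptors outside the list, Htr2b, Htr3b, Htr5a and Htr6, was called between the portions over both strains, beside 8.6% of all genes, and Htr5a and Htr6 had log2 fold changes of -0.54 ± 0.21 and -1.42 ± 0.54. Htr3b, the usual partner subunit of Htr3a, had a median of 0 CPM in both portions. Of the 10 genes of synthesis, transport and breakdown, 9 were tested and 1 was called. This was Slc29a4, a low-affinity monoamine transporter that is also made by the choroid plexus, at 0.0777 to 7.21 CPM in anterior and 2.87 to 44.7 CPM in posterior libraries, with a log2 fold change of 2.59 ± 0.39 (edgeR adjusted p = 4.02e-05). In the C57BL/6J fit, which called 3.64% of all genes, Tph1, a serotonin synthesis enzyme, was lower as well. Over the libraries of both strains its median was 0.695 CPM in anterior and 0 CPM in posterior libraries. It was near the floor, at no more than 2.4 CPM in anterior and 1.9 CPM in posterior libraries. The genes that define serotonin neurons were near 0: Fev had no count in any library, Slc6a4 reached 1.75 CPM and Tph2 2.58 CPM. Maoa and Maob, which break serotonin down, had medians of 46.3 and 47.1 CPM in anterior and 46.6 and 47.4 CPM in posterior libraries.

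Of the 14 signalling partners, 2 were called over both strains, beside 8.6% of all genes, and both were lower in the posterior portion. Plcb1, a phospholipase C that Gq activates, fell by 0.89 ± 0.10 on the log2 scale (edgeR adjusted p = 6.30e-07). The Gq genes Gnaq and Gna11, and Plcb4, were not called in this fit. Gnao1, a G protein of the inhibitory class, fell by 0.29 ± 0.09 (edgeR adjusted p = 0.0313). Plcb4 passed in the C57BL/6J fit, with a log2 fold change of -0.79 ± 0.18 (edgeR adjusted p = 0.0158). Between the strains, S100a10, an adaptor that binds Htr1b and Htr4, was lower in B6D2F1N in standard posterior libraries, with a log2 fold change of -1.36 ± 0.25 (edgeR adjusted p = 0.0273).

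The genes whose levels ran most like each receptor over the 35 libraries are given as a description, since both portions, all groups and library depth enter such a correlation. Htr1f ran closest to Drd1, Lamp5 and Grm8 (Pearson's r = 0.85 with each), among protein-coding genes with a mean of at least 5 CPM. Htr2a ran closest to Igsf9b (r = 0.85, but 0.76 in the posterior and 0.24 in the anterior libraries), Htr2c to Cnih3 (r = 0.84) and Htr3a to Slco3a1 (r = 0.84). Htr3a and its next nearest gene, Slc7a3, had r = 0.90 in the posterior but 0.39 in the anterior libraries, and Htr1f and Drd1 had 0.89 and 0.50. For Htr2c and Cnih3 r was 0.72 in the posterior and 0.87 in the anterior libraries. The nearest genes of the other receptors were less close, with Nfix at 0.76 for Htr1a, Klf15 at 0.76 for Htr5b, Adamts1 at 0.71 for Htr7, Sv2c at 0.69 for Htr1d, Gda at 0.66 for Htr1b and Apeh at 0.64 for Htr4.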

How the data were processed

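The authors collected cells of the anterior and posterior amygdala from stained sections by laser capture, made libraries from enriched mRNA with a kit for low input that does not mark strand, and read 72 bases from a single end. Per the labels' processing notes and the methods, reads were trimmed with Trimmomatic 0.38, aligned to GRCm38/mm10 with HISAT2 2.1.0 and counted per gene with HTSeq 0.11.2. The deposited files hold these raw counts, with no normalization. Reads in no gene (13.7 to 26.4%), in several genes (3.06 to 3.74%) or not uniquely aligned (6.23 to 10.9%) are separate lines and were left out of totals and tests. Gene symbols and exon lengths came from GENCODE M21, which held 52403 of the 52636 identifiers.

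Genes with at least 10 counts in total were fitted with edgeR 4.0.16 (R 4.3.3), TMM scaling, the quasi-likelihood test and Benjamini-Hochberg adjustment over all genes, at a threshold of 0.05. Portions were compared with the mouse as a block. Strains and housing conditions were compared within each portion, and bias classes with strain and housing as terms. The pairing comes from the mouse code in the labels. Deviations from group means correlated within a mouse with a median r of 0.0482 (-0.105 to 0.221, 16 mice, 16023 genes), against -0.0169 between mice. No 2 of the libraries held identical counts. All 10 members passed the count filter in every comparison. Alternatives were DESeq2 1.42.0, its size factors in edgeR, edgeR's filterByExpr, no minimum count, robust empirical Bayes, other terms in the fit and leaving out each mouse or library. The alternative without 3 mice was chosen after seeing the data. Members, gene lists and tests were chosen with earlier results of these data known. Every member was named, with members of the other lists that passed the test or bear on a member, and the 3 genes most alike were taken among protein-coding genes with a mean of at least 5 CPM. The scripts were tested on simulated data.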

Additional observations from a re-analysis of the deposited data

Results flagged for a closer look

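In 4 of the 70 pairs of receptor and group that held 4 to 10 libraries, 1 library lay far above the rest of its group, where chance alone gives about 1 in 20. Htr3a was at 79.5 CPM in the posterior library of B6D2F1N standard mouse 1, and the next of the 5 libraries was at 23.7 CPM. Htr3a was at 52.6 CPM in the anterior library of C57BL/6J standard mouse 2, next to 22.5 CPM among 4 libraries. Htr4 was at 31.2 CPM in the posterior library of B6D2F1N standard mouse 4, next to 8.51 CPM among 5 libraries. In that library listed genes of striatal-type projection neurons summed to 795 CPM, against a median of 131 CPM over the 35 libraries. Rspo2 was at 0.0417 CPM there, the lowest of all libraries. In the posterior library of mouse 5 of that group, the same list summed to 460 CPM, with Htr4 at 5.81 CPM. Htr2a was at 35.3 CPM in the anterior library of B6D2F1N enriched mouse 2, next to 17.7 CPM among 5 libraries. The cause was not tested for any of them.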

How the results depend on the processing

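Between the portions, the count of called receptors in C57BL/6J (2, among 937 genes called) became 5 with DESeq2's likelihood ratio test (among 1535) and 6 with no minimum count (1405), and ranged from 2 to 3 with a mouse left out. In B6D2F1N (1 among 1110) it became 3 with DESeq2 (1994), 2 with no minimum count (1352) and 2 without the 3 mice (746), and ranged from 1 to 2 with a mouse left out. Over both strains (5 among 2532) it became 3 with robust empirical Bayes (2539), which lost Htr1a (edgeR adjusted p = 0.0581) and Htr2c (0.0509), and ranged from 3 to 5 with a mouse left out. Without the mouse as a block, that is with the pairing ignored, the counts were 1 in C57BL/6J (706), 1 in B6D2F1N (1172) and 4 over both strains (3955). Htr1f was lost in C57BL/6J (edgeR adjusted p = 0.0508) and Htr1a over both strains (edgeR adjusted p = 0.217). Htr1a over both strains was also lost with filterByExpr (edgeR adjusted p = 0.0508). The housing count in C57BL/6J posterior libraries (0) became 1 with DESeq2's Wald test (among 319), and the bias count in the posterior portion (0) became 1, Htr3a, with no minimum count (79). Between strains in standard posterior libraries it ranged from 0 to 1 with a mouse left out. Htr2a and Htr1f over both strains, Htr3a in C57BL/6J and Htr2a in B6D2F1N were called under each alternative run. The cause of the changes was not tested.

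Among the results recomputed, the direction turned for 5, none of them called. In C57BL/6J, the log2 fold change of Htr1d was 0.32 without the block and -1.23 to 0.58 with a mouse left out, and that of Htr4 was -0.59 to 0.23. Over both strains, Htr1b was at 0.0018 without the block, 0.046 without the 3 mice and -0.14 to 0.092 with a mouse left out. Htr7 was at -0.043 without the block and -0.13 to 0.33 with a mouse left out, where Htr1d was at -0.14 to 0.43. The bias fit without B6D2F1N standard mouse 1 could not be made. Htr5b and Htr1d had libraries at 0 to 3 counts, and Htr7 had 1 library with at most 3 counts.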
